A study of Mus musculus with 8 samples.

Results

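mmu-miR-221-3p, mmu-miR-221-5p, mmu-miR-222-3p and mmu-miR-222-5p are the 4 mature miRNAs cut from the miR-221 and miR-222 hairpins of the mouse, and they were followed here in macrophages that lost their growth factor. They were chosen by name, as miRNA features of either deposited table, and are 4 of 3514 features in all, 1515 of which are miRNA features. All 4 were listed in both tables, and 4 of 4 passed the minimum on low counts. The cells were bone marrow-derived macrophages (BMDMs) of C57BL/6J mice. The marrow came from male mice of 10 weeks, and macrophages were grown for 7 days in medium conditioned by L929 cells, a fibroblast line that secretes Macrophage-Colony Stimulating Factor (M-CSF). Control cells kept this factor and the others were deprived of it for 36 h, an apoptotic stimulus. No genetic change is given for either group. Small RNA was sequenced in 2 runs, with 2 control and 2 M-CSF withdrawal libraries on the Ion Proton, 1 of each from total RNA on the SOLiD, and 1 of each on the SOLiD from RNA of 25 to 40 nt cut from a gel. The cultures were bulk samples, so that fewer cells of a type and less RNA per cell cannot be told apart.

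A miRNA is cut from the stem of a hairpin transcript, and the arm that is loaded into an Argonaute protein guides it to messenger RNAs that pair with its seed, bases 2 to 8. miR-221 and miR-222 arise from neighbouring hairpins, their 3p arms are the usual guides, and both are known for repressing the Cip/Kip cyclin-dependent kinase inhibitors p27 and p57 and the receptor Kit. They are also known as regulators of cell cycle entry and inflammation in vascular and myeloid cells. The 5p arms are the opposite strands of the same hairpins and are usually found at lower levels.

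The mature sequences are shown because the arms differ in what they can pair with, and because the 3p arms share a seed. They are given as deposited, with the seed in capitals.
mmu-miR-221-3p: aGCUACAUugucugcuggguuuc
mmu-miR-222-3p: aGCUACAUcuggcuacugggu
mmu-miR-221-5p: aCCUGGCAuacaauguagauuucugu
mmu-miR-222-5p: uCAGUAGCcaguguagauccu
The 3p arms were identical over their first 8 bases and at 11 of 21 positions when aligned from the 5′ end, while the 5p arms had different seeds. RefSeq lists miR-222-3p with 23 nt where the deposited form has 21, and miR-221-3p and miR-221-5p as deposited. Of 1804 mature mouse miRNAs in the RefSeq table, 2 others than the miRNA itself carried the seed of each 3p arm, namely the other 3p arm and miR-1928, which was listed in neither table.

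All 4 lie on the minus strand of chromosome X in mm10 (GRCm38). The miR-221 hairpin is at chrX:19146294-19146388, with the 3p arm at chrX:19146307-19146329 and the 5p arm at chrX:19146344-19146369. The miR-222 hairpin is at chrX:19146893-19146971, with the 3p arm at chrX:19146903-19146923 and the 5p arm at chrX:19146940-19146960. The hairpins are 504 bp apart, and the GENCODE annotation has no other gene over them or between them, so that they are intergenic in it. The nearest gene, Gm14636, a processed transcript of the same strand, lies 10009 bp away. The hairpins from RefSeq, with the mature arms in capitals, show the 5p arm before the loop and the 3p arm after it.
Mir221: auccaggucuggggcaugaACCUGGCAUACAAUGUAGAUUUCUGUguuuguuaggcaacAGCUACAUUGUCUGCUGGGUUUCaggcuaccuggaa
Mir222: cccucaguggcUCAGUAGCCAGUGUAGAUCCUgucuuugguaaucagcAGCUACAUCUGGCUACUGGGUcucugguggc

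Levels are given as reads per 1000000 reads on the listed features, called CPM for the Ion Proton and RPM for the SOLiD, and the depth was 4039837 to 12178454 such reads per library. Intervals of single libraries are 95% Wilson intervals and cover counting error only. The classes of small RNA moved with the treatment. miRNA features took 40.4 and 41.6% of the Ion Proton control reads and 30.0 and 30.3% after M-CSF withdrawal, and 82.2% against 41.3% in the SOLiD libraries of total RNA. Nuclear tRNA took 26.6 to 26.7% of the Ion Proton control reads and 44.7 to 47.1% after withdrawal, and 10.2% against 42.2% in the SOLiD total RNA. Values are therefore also given per 1000000 miRNA reads. The RNA integrity number ranged from 8.4 to 8.9 for the Ion Proton. On the SOLiD it was 8.4 for control and 7.5 for withdrawal total RNA, and 2.7 and 2.6 for the RNA of 25 to 40 nt.

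The macrophage label was checked against 6 miRNAs known from myeloid cells. miR-21a-5p and miR-146a-5p were abundant. The myeloid sum was 67025 to 72962 CPM in the Ion Proton controls and 50372 to 57370 CPM after withdrawal. It was 385403 and 143166 RPM in the SOLiD total RNA, and 233490 and 95758 RPM in the 25 to 40 nt libraries. Most of the sum was miR-21a-5p, with 58154 and 63063 CPM in the Ion Proton controls and 359445 RPM in the SOLiD total RNA control. The sum is thus a weak check of the label. miR-155-5p had 361 RPM in control and 575 RPM in withdrawal total RNA on the SOLiD, against the fall of the sum. In the 25 to 40 nt RNA it had 999 and 758 RPM, and its Ion Proton groups overlapped. miR-223-3p, a defining myeloid miRNA, had 11725 and 4473 RPM in the SOLiD total RNA but 66.9 to 96.5 CPM on the Ion Proton. The miR-142 arms, which mark blood cells, were not in the Ion Proton table, and on the SOLiD miR-142-5p had 675 and 198 RPM in total RNA and 292 and 140 RPM in the 25 to 40 nt RNA, control first, with miR-142-3p at 0.112 to 3.71 RPM. The 6 epithelial miRNAs summed to 8.59 to 12.4 CPM on the Ion Proton. On the SOLiD they summed to 9469 RPM for control and 7504 RPM for withdrawal total RNA, and to 7177 and 10810 RPM for the RNA of 25 to 40 nt. The erythroid list also stood higher in the SOLiD run (2706 to 4445 RPM against 3.06 to 8.26 CPM), while the endothelial miRNAs miR-126-3p and miR-126-5p were in neither table. Likewise the fibroblast and smooth muscle list summed to 12.7 to 23.3 CPM and 134 to 185 RPM, the striated muscle list to 0 CPM and 224 to 421 RPM, the hepatocyte miRNA to 0 to 0.165 CPM and 52.7 to 89.6 RPM, and the neuronal list to 0.418 to 4.60 CPM and 34.7 to 55.0 RPM. The lymphoid list, nearly all of it miR-181a-5p on the Ion Proton, had 9171 and 9724 CPM in the controls and 6303 and 6548 CPM after withdrawal, and 4332 to 8687 RPM on the SOLiD. The part of these differences between the runs in the results that follow was not tested.

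The 3p arm of miR-221 was among the most abundant miRNAs of these macrophages. miR-221-3p had 28049 and 28567 CPM in the Ion Proton controls and 19448 and 19186 CPM after M-CSF withdrawal. In the SOLiD libraries of total RNA it had 43949 RPM in control cells and 7843 RPM after withdrawal. In those of 25 to 40 nt it had 104548 and 79823 RPM. The withdrawal library was below its controls in each set, as was common among miRNA features. Of 145 miRNA features compared in all 3 sets, 110 (75.9%) were lower after withdrawal in each. The Ion Proton groups did not overlap for miR-221-3p, but the share of all features without overlap was not counted. By level miR-221-3p was 3rd among miRNA features in both Ion Proton controls and 4th in both withdrawal libraries. It was 3rd and 4th in the SOLiD total RNA, and 2nd and 1st in the 25 to 40 nt RNA.

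miR-222-3p, which shares the seed, was lower than miR-221-3p in all 8 libraries. It had 18839 and 17981 CPM in the Ion Proton controls and 10743 and 10440 CPM after withdrawal. On the SOLiD, total RNA gave 5639 and 3528 RPM and the 25 to 40 nt RNA 10469 and 8673 RPM, control first. Again each withdrawal library was below the controls of its set. Its place by level was 7th in both Ion Proton controls and 8th in both withdrawal libraries, 19th and 20th in the SOLiD total RNA, and 17th and 10th in the 25 to 40 nt RNA.

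**Figure D1:**
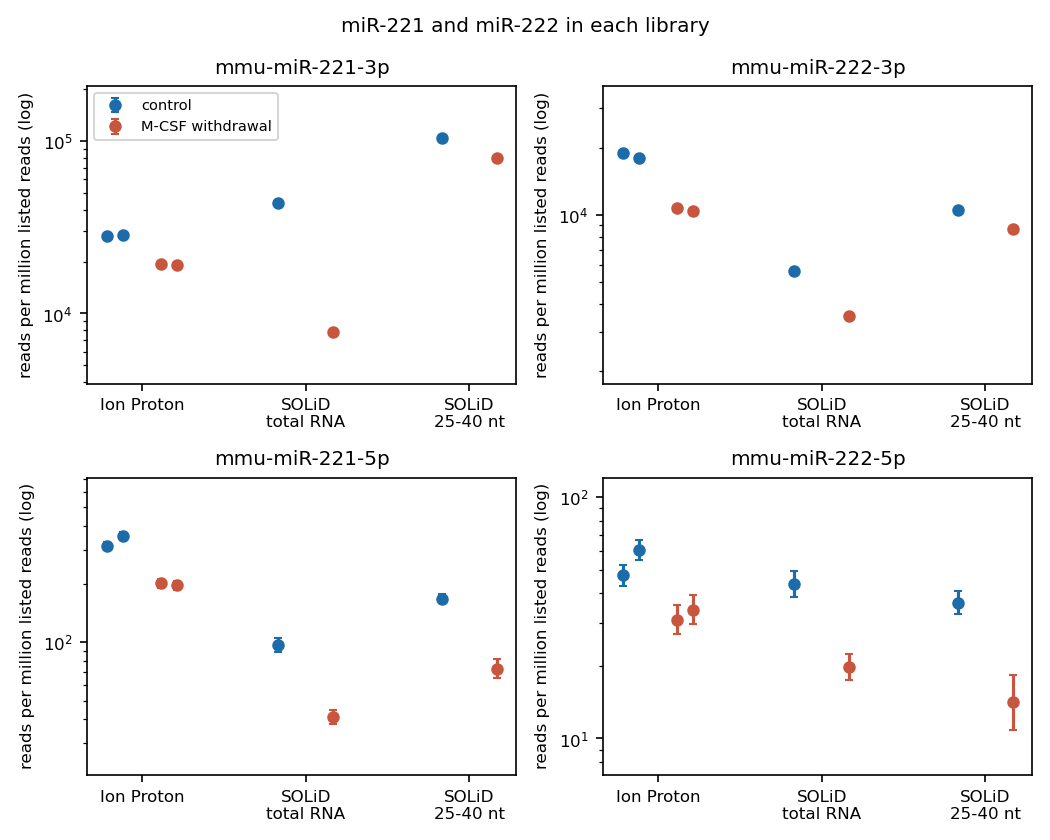
Reads per 1000000 listed reads (log axis) of the 4 mature miRNAs in each of the 8 libraries, in blue for control and in red for M-CSF withdrawal, with 95% Wilson intervals that are often smaller than the points. The red points sit below the blue ones of the same set in all 4 panels, by the widest gap for miR-221-3p in the SOLiD total RNA (43949 and 7843 RPM).

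The 5p arms were far less abundant. miR-221-5p had 317 and 357 CPM in the Ion Proton controls and 203 and 197 CPM after withdrawal. It had 96.5 and 41.1 RPM in the SOLiD total RNA and 168 and 73.0 RPM in the 25 to 40 nt RNA, control first. The withdrawal values lay below the controls in every set. miR-222-5p was the rarest, with 47.4 and 60.4 CPM in the Ion Proton controls and 31.1 and 34.2 CPM after withdrawal. It had 43.8 and 19.8 RPM in the SOLiD total RNA, and 36.6 RPM (32.8 to 40.8) and 14.1 RPM (10.9 to 18.3) in the 25 to 40 nt RNA, where the withdrawal value rests on 57 reads. The Ion Proton groups did not overlap for either 5p arm, and the share of all features without overlap was not counted. The order miR-221-3p, miR-222-3p, miR-221-5p, miR-222-5p was found in 8 of 8 libraries, both by reads and by reads per nucleotide of the mature form. The 95% counting intervals of neighbours in this order did not overlap in any library.

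In the Ion Proton run, 3 of the 4 miRNAs fell after M-CSF withdrawal, against 8.97% of all features called lower. Called means an adjusted p under 0.05 by the quasi-likelihood test of edgeR with Benjamini-Hochberg adjustment, over 2029 features tested. The SE given with edgeR is the size of the log2 fold change over the square root of the F statistic of that test. For miR-222-3p the standard error by DESeq2 was larger, 0.105. miR-222-3p fell by 0.74 on the log2 scale (SE 0.0564, adjusted p = 0.00274, edgeR). miR-221-3p fell by 0.50 (SE 0.0519, adjusted p = 0.00501, edgeR). miR-221-5p fell by 0.70 (SE 0.0952, adjusted p = 0.0115, edgeR). The log2 fold change of miR-222-5p was -0.67 (SE 0.167) and did not pass, with an adjusted p of 0.0508 by edgeR. Leaving out 1 library gave -0.95 to -0.48 for miR-222-5p, with a call only without control replicate 1. The changes of the 4 miRNAs stand against a median log2 fold change of 0.08 over all features. Over the 744 miRNA features tested the median was -0.34, with 84 called lower and 16 higher. Among the 206 miRNA features averaging 10 CPM or more, counted from the largest decrease, miR-222-3p was in place 21, miR-221-5p 25, miR-222-5p 27 and miR-221-3p 57.

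Relative to the other miRNAs the decrease was smaller. With TMM factors taken from miRNA features only, which moved the median of all features to 0.39 and that of the miRNA features to -0.03, miR-222-3p was the 1 of the 4 still called lower, against 3.94% of all features, with a log2 fold change of -0.43 (SE 0.0678, adjusted p = 0.0149, edgeR). The log2 fold change was then -0.18 for miR-221-3p (adjusted p = 0.0752, edgeR), -0.38 for miR-221-5p (adjusted p = 0.0507, edgeR) and -0.35 for miR-222-5p (adjusted p = 0.202, edgeR). As plain shares, miR-221-3p was 69460 and 68688 per 1000000 miRNA reads in the controls and 64849 and 63248 after withdrawal, and miR-222-3p was 46653 and 43234 against 35822 and 34416. The groups did not overlap for either arm on this scale, and the share of all features without overlap was not counted.

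Without replicates, the SOLiD run gives ratios and no test. In total RNA, the log2 ratio of withdrawal to control on RPM plus 1 was -2.49 for miR-221-3p, -0.68 for miR-222-3p, -1.21 for miR-221-5p and -1.11 for miR-222-5p. Of 270 miRNA features that reached 10 RPM in each of the pair, 247 had a ratio below 0 and the median was -0.68. miR-222-3p was thus at the median of the miRNA features, and miR-221-3p was the 5th lowest. In the 25 to 40 nt RNA the ratios were -0.39, -0.27, -1.19 and -1.31 in the same order, with a median of -0.79 over 278 miRNA features, so that both 3p arms had ratios above this median and both 5p arms below it.

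Per 1000000 miRNA reads the SOLiD ratios changed, and 3 of them changed sign. In total RNA, miR-222-3p went from 6864 to 8538 per 1000000 miRNA reads, a log2 ratio of 0.31, while miR-221-3p went from 53496 to 18984, a ratio of -1.49. The ratios of miR-221-5p and miR-222-5p were -0.24 and -0.15. In the 25 to 40 nt RNA, miR-221-3p went from 119622 to 176860 and miR-222-3p from 11979 to 19216 per 1000000 miRNA reads, log2 ratios of 0.56 and 0.68, and the 5p arms had -0.25 and -0.41. The 4 miRNAs together took 11.7 and 11.3% of the miRNA reads of the Ion Proton controls and 10.1 and 9.84% after withdrawal, 6.05 and 2.77% in the SOLiD total RNA, and 13.2 and 19.6% in the 25 to 40 nt RNA.

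**Figure D2:**
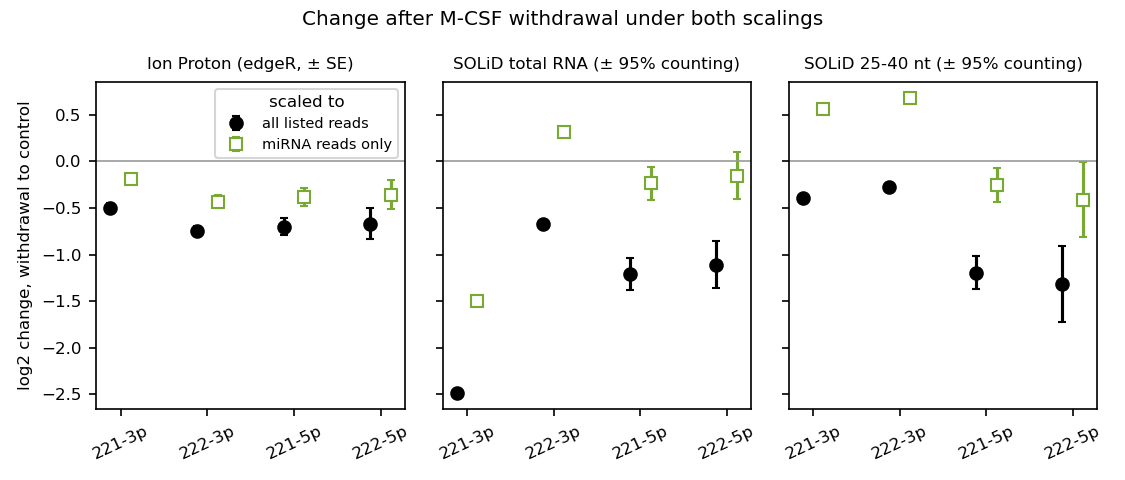
log2 change from control to M-CSF withdrawal for the 4 miRNAs. Bars are SE in the Ion Proton run (edgeR) and 95% counting intervals in the SOLiD total RNA and the SOLiD 25 to 40 nt RNA. In the SOLiD panels values are scaled to all listed reads (black circles) or to miRNA reads (green squares). In the Ion Proton panel the edgeR fit has TMM factors from all features (black circles) or from miRNA features only (green squares). All black points lie below 0, whereas the green squares lie above 0 for miR-222-3p in the SOLiD total RNA (0.31) and for both 3p arms in the 25 to 40 nt RNA (0.56 and 0.68).

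Over both runs, 2 of the 4 fell, against 5.70% of all features called lower. This comparison used the 3 control and 3 withdrawal libraries of total RNA, with run as a term of a limma model on log2 of the value plus 1, and 1701 features. miR-222-3p fell by 0.76 on the log2 scale (SE 0.104, adjusted p = 0.0108, limma) and miR-221-5p by 0.90 (SE 0.187, adjusted p = 0.0287, limma). miR-221-3p had the lowest log2 fold change, with -1.20, but also the largest error of the 4 (SE 0.382), and did not pass (adjusted p = 0.0830, limma). The log2 fold change of miR-222-5p was -0.83 (SE 0.233, adjusted p = 0.0594, limma). The median was 0.17 over all features and -0.39 over the 535 miRNA features, 48 of which were called lower and 5 higher.

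The calls over both runs changed with single libraries and with the scaling. Without either SOLiD library, which leaves the Ion Proton effect alone, miR-221-3p was called with -0.55 (adjusted p = 0.00451 without the SOLiD control library and 0.00548 without the SOLiD withdrawal library, limma), and so was miR-222-5p with -0.70 (0.0331 and 0.0308). These settings called 14.3 and 14.2% of all features lower. Without Ion Proton control replicates 1 and 2 and withdrawal replicates 1 and 2, in this order, the limma adjusted p was 0.0647, 0.0912, 0.0752 and 0.0741 for miR-222-3p and 0.0917, 0.134, 0.116 and 0.116 for miR-221-5p, so that both calls were lost. The log2 fold changes stayed at -0.76 to -0.73 for miR-222-3p and at -0.995 to -0.90 for miR-221-5p. In these settings limma called 4 of the 1701 features lower (0.235%) without control replicate 1 and 0 without each of the others, with 157 to 184 lower at an unadjusted p under 0.05. With values scaled to miRNA reads, which moved the median of all features to 0.69, none of the 4 was called by limma, against 2 of 1701 features called lower (0.118%), with log2 fold changes of -0.57 (miR-221-3p), -0.13 (miR-222-3p), -0.28 (miR-221-5p) and -0.23 (miR-222-5p) and adjusted p of 0.224, 0.676, 0.379 and 0.548. At an unadjusted p under 0.05 that scaling called 0 of the 4, and 19 of the 1701 features lower.

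The size of the change in miR-221-3p differed between the runs. As a difference of log2 effects, SOLiD minus Ion Proton, it was -1.93 for miR-221-3p (SE 0.104, adjusted p = 0.00112, limma interaction of run and treatment). The difference was 0.12 for miR-222-3p (SE 0.110, adjusted p = 0.472), -0.46 for miR-221-5p (SE 0.171, adjusted p = 0.114) and -0.41 for miR-222-5p (SE 0.292, adjusted p = 0.359), all by limma. With 1 of the 4 called, the background was 26.0% of all features called in either direction. Scaled to miRNA reads, miR-222-3p was called as well (0.67, adjusted p = 0.0131, limma, with 35.6% of all features called), and with centring on the median so was miR-221-5p (-0.94, adjusted p = 0.0229, limma, with 28.8% called). The spread in this test came from the Ion Proton libraries alone, since the SOLiD run had 1 library per condition, and the single SOLiD libraries were assumed to vary like them. Leaving out 1 Ion Proton library, which leaves 1 in its group, kept the difference for miR-221-3p at -1.95 to -1.92. Its call held without either control replicate. It was lost without either withdrawal replicate, as were all other calls of this test. The size of the difference was 6th from the lowest of 145 miRNA features with a mean of at least 10 per 1000000 in each set of libraries, whose median difference was -0.39. Run, platform, library kit and RNA input differ together here and cannot be told apart.

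**Figure D3:**
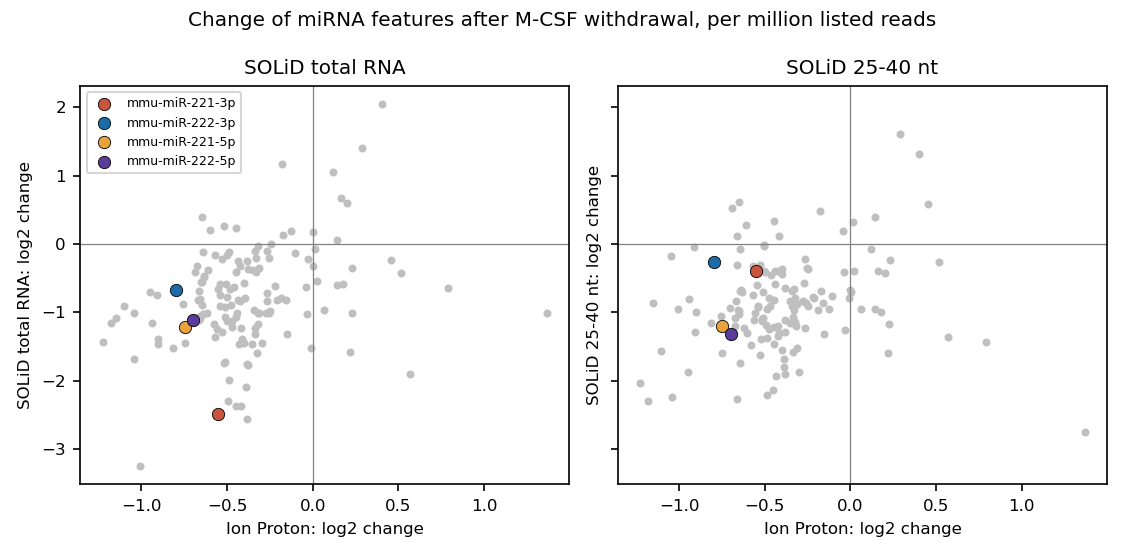
log2 change after M-CSF withdrawal, per 1000000 listed reads plus 1, of 145 miRNA features (grey) in the Ion Proton run (horizontal axis) and in the SOLiD total RNA or 25 to 40 nt RNA (vertical axes), with the 4 miRNAs in colour. In the left panel miR-221-3p lies low (-0.55 and -2.49) and miR-222-3p nearer the middle of the grey points (-0.80 and -0.68), while in the right panel both lie above the 5p arms.

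Within a library, the ratio of miR-222-3p to miR-221-3p does not depend on the scaling. It was 0.672 and 0.629 in the Ion Proton controls and 0.552 and 0.544 after withdrawal. In the SOLiD total RNA it was 0.128 in control cells and 0.450 after withdrawal, and in the 25 to 40 nt RNA it was 0.100 and 0.109. It was lower after withdrawal in the Ion Proton run, at 0.651 ± 0.0299 against 0.548 ± 0.00582 (SD, n = 2; exact two-sided permutation test, p = 0.33, the smallest that 2 against 2 libraries allow), and was higher after withdrawal in both SOLiD pairs, 3.51 times in total RNA and 1.09 times in the 25 to 40 nt RNA. The ratio of withdrawal to control was 0.843 in the Ion Proton run.

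The 5p arm of miR-221 made up 1.12 and 1.24% of the 5p plus 3p reads in the Ion Proton controls and 1.03 and 1.02% after withdrawal (means of 1.18 ± 0.0843 and 1.03 ± 0.00982%, SD, n = 2, exact permutation test, p = 0.33). In the SOLiD total RNA its share was 0.219% in control cells and 0.522% after withdrawal, and in the 25 to 40 nt RNA 0.161 and 0.0914%. The direction in the SOLiD total RNA was thus opposite to that in the other sets. For miR-222 the 5p share was 0.251 and 0.335% in the Ion Proton controls and 0.289 and 0.326% after withdrawal, so that the groups overlapped (0.293 ± 0.0593 and 0.308 ± 0.0266%, SD, n = 2, exact permutation test, p = 1). It was 0.771 and 0.558% in the SOLiD total RNA and 0.348 and 0.162% in the 25 to 40 nt RNA, control first. The 3p arms thus held at least 99.1% of the reads of the 4 miRNAs in every library.

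**Figure D4:**
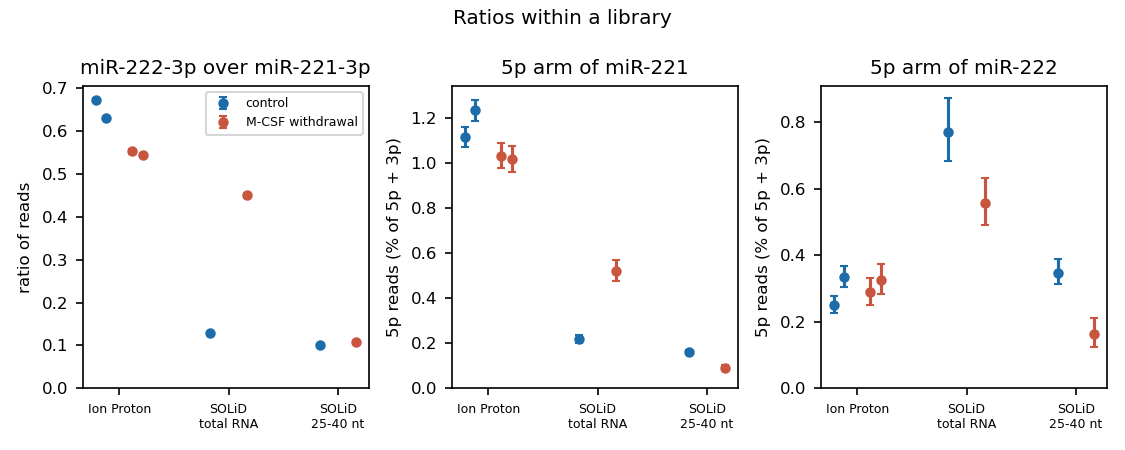
Ratio of miR-222-3p to miR-221-3p reads (left) and 5p reads as a percent of 5p plus 3p reads for miR-221 (middle) and miR-222 (right) in each library, blue for control and red for M-CSF withdrawal, with 95% counting intervals. The left panel shows the red points below the blue ones in the Ion Proton run (0.552 and 0.544 against 0.672 and 0.629) and above in the SOLiD total RNA (0.450 against 0.128).

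The arms differed in how their level in size selected RNA stood to that in total RNA, and the ratio was highest for miR-221-3p after withdrawal. In control cells the RPM in the 25 to 40 nt RNA was 2.38 times that in total RNA for miR-221-3p, 1.86 times for miR-222-3p, 1.75 times for miR-221-5p and 0.835 times for miR-222-5p, with a median of 0.960 over 294 miRNA features. After withdrawal it was 10.2, 2.46, 1.78 and 0.713 times, with a median of 1.33 over 257 miRNA features. All 4 mature forms as deposited have 21 to 26 nt, and only miR-221-5p falls inside the range that was cut. The numbers are from 1 library each and have no replicate check.

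The hairpins were also listed as features of their own, under Ensembl transcript identifiers. The Mir222 hairpin feature (ENSMUST00000083537) had 120 and 117 reads in the Ion Proton controls and 66 and 56 after withdrawal. Its log2 fold change was -0.66 (SE 0.151, adjusted p = 0.0418, edgeR), and its adjusted p was 0.183 by the Wald test of DESeq2. With TMM factors from miRNA features only it was -0.34 and did not pass (adjusted p = 0.222, edgeR). The call was also lost with a minimum of 1 (adjusted p = 0.0549, edgeR) and with voom (adjusted p = 0.0513, limma-voom). It held with library totals (adjusted p = 0.0339, edgeR). Over both runs the log2 fold change was -0.80 (adjusted p = 0.0626, limma). In the SOLiD total RNA it had 193 and 90.7 RPM, and in the 25 to 40 nt RNA 578 and 466 RPM, control first. The Mir221 hairpin feature (ENSMUST00000083488) had 8 and 4 reads in the Ion Proton controls and 26 and 5 after withdrawal, so that the groups overlapped, and 10.0 and 5.75 RPM in the SOLiD total RNA. Its log2 fold change was 1.62 (SE 0.90, adjusted p = 0.297, edgeR). The hairpin coordinates contain those of the mature arms, and how reads were divided between them is not given in the sources used here.

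Other miRNAs reported to act on the Cip/Kip inhibitors p21, p27 or p57 were listed with the miR-221 and miR-222 pathway. Of 11, 4 were called lower and 0 higher by edgeR in the Ion Proton run, beside the 8.97% of all features called lower, and 7 did not pass. At an unadjusted p under 0.05 edgeR gave 5 lower and 0 higher, for which the share of all features was not counted. DESeq2 called 4 lower and 0 higher, against 11.9% of all features and 14.0% of miRNA features called lower. The list had a median log2 fold change of -0.55 against -0.34 over all miRNA features tested. miR-25-3p, of the miR-106b cluster, had 2002 and 2102 CPM in the controls and 1354 and 1275 CPM after withdrawal, and fell by 0.59 on the log2 scale (adjusted p = 0.00766, edgeR). miR-93-5p of the same cluster had 704 and 745 CPM against 472 and 481, and fell by 0.55 (adjusted p = 0.0123, edgeR). miR-24-3p, at 2024 and 2093 CPM against 1624 and 1605, fell by 0.30 (adjusted p = 0.0362, edgeR), and miR-92b-3p fell by 0.46 (adjusted p = 0.0472, edgeR). Among the 7 others, miR-148a-3p was nearly level, at 1419 and 1465 CPM in the controls and 1379 and 1425 CPM after withdrawal, with a log2 fold change of 0.01 (adjusted p = 0.926, edgeR). The rest had -0.87 (miR-20a-5p), -0.83 (miR-106b-5p), -0.81 (miR-196a-5p), -0.63 (miR-152-3p), 0.20 (miR-17-5p) and 0.03 (miR-106a-5p). All of these but miR-152-3p had only 0.307 to 24.2 CPM on the Ion Proton. In the SOLiD total RNA control, miR-17-5p, miR-20a-5p and miR-106b-5p had 1953, 2971 and 2763 RPM. With TMM factors from miRNA features only, 0 of the 11 were called lower, against 3.94% of all features, and 1 higher, against 20.4%. The 1 was miR-148a-3p with 0.33 (adjusted p = 0.0326, edgeR). At an unadjusted p under 0.05 edgeR then gave 2 lower and 2 higher, for which the share of all features was not counted either. Over both runs limma called 1 lower, miR-25-3p with -0.77 (adjusted p = 0.0200), beside the 5.70% of all features, and 0 higher. At an unadjusted p under 0.05 limma gave 5 lower and 0 higher, against 236 of 1701 features lower. The list median of -0.39 was that of all miRNA features, -0.39. These miRNAs and the 4 miRNAs of the locus were measured in the same libraries, and their targets were not measured.

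The miRNAs whose profile was most like that of each 3p arm were ranked by root mean square distance between log2 values over the 8 libraries, centred within each set, among the 145 miRNA features with a mean of at least 10 per 1000000 in each set. Nearest to miR-221-3p were miR-484 (0.211), miR-130b-5p (0.263), miR-128-3p (0.266), miR-361-3p (0.288) and miR-125b-5p (0.293). Their SOLiD total RNA differences of log2 values were -2.30, -2.37, -1.59, -1.37 and -1.69, and their Ion Proton differences -0.49, -0.42, -0.33, -0.57 and -1.05. Nearest to miR-222-3p were miR-100-5p (0.0880), miR-423-5p (0.116), the Mir222 hairpin feature (0.120), miR-30a-5p (0.124) and miR-92a-3p (0.128). The 3p arms were not close to each other by this measure (0.462), miR-222-3p being in place 65 from miR-221-3p and miR-221-3p in place 117 from miR-222-3p. Most of this distance came from the SOLiD total RNA, with 1 library per condition, where their differences were -2.49 (miR-221-3p) and -0.68 (miR-222-3p). In the same order they were -0.55 and -0.80 in the Ion Proton run, and -0.39 and -0.27 in the 25 to 40 nt RNA. The 5p arms lay close together, at 0.0739, miR-221-5p being the nearest feature to miR-222-5p and miR-222-5p in place 2 from miR-221-5p. From miR-221-3p, miR-221-5p was in place 30 and miR-222-5p in place 46, and from miR-222-3p they were in places 59 and 75. The distances are descriptions over 8 libraries that differ in depth and class composition. Of these 145 miRNA features, 110 (75.9%) were lower after withdrawal in all 3 sets per 1000000 listed reads, as were the 4 miRNAs.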

How the data were processed

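Ion Proton reads were trimmed by the authors with cutadapt 1.2.1 and mapped to mm10 with Bowtie2 2.2.4, with several places allowed per read, and read counts per feature were deposited. The rule for reads with several places is not given in the sources used here. SOLiD reads were aligned with LifeScope, and the authors deposited reads per 1000000 (RPM), written with decimal commas. Each library summed to 1000000, and 100% of values were whole multiples of 1 read within 0.000596 reads, so that reads were recovered.

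The Ion Proton counts entered edgeR 4.0.16 (TMM, quasi-likelihood) in R 4.3.3, after features under 5 reads in sum were dropped. For the 6 total RNA libraries limma 3.58.1 was used (treatment and run, intensity trend) on log2 of CPM or RPM plus a pseudocount of 1, over features with at least 5 reads in each run. A limma model with the interaction of run and treatment was added after the data were seen. P-values were adjusted over all features (Benjamini-Hochberg, threshold 0.05). The edgeR fit and a limma fit without the run term were tried on counts simulated for the Ion Proton libraries. The limma models with run, and with its interaction, were not simulated. Ratios within a library were tested by exact two-sided permutation. DESeq2 1.42.0 and voom were alternatives. The features named were the 4 miRNAs, their hairpins, listed miRNAs with the same seed, the 11 miRNAs reported to act on Cip/Kip inhibitors and the 5 nearest to each 3p arm. The cell type lists held further markers of lymphoid, fibroblast, striated muscle, hepatocyte and neuronal cells. Members, lists and tests were chosen with earlier results of these data known. The methods describe the replicates as biological, and nothing says which cultures were shared between runs. Replicate numbers are shared by the Ion Proton groups. The deviations of the libraries numbered 1 from their group means had a correlation of 0.00562 over 852 features. With 2 libraries per group, those numbered 2 only mirror them. The value is thus 1 comparison and cannot decide whether the samples are paired. The main fits took them as unpaired.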

Additional observations from a re-analysis of the deposited data

Results flagged for a closer look

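The effect of M-CSF withdrawal on miR-221-3p differed between the runs. The difference of log2 effects, SOLiD total RNA minus Ion Proton, was -1.93, with -0.55 in the Ion Proton run and -2.49 in the SOLiD total RNA, on log2 of the value plus 1. The limma interaction had an adjusted p of 0.00112, with 26.0% of all features called. Its spread came from the Ion Proton libraries alone, since the SOLiD run had 1 library per condition. Leaving out 1 Ion Proton library, which leaves 1 in its group, gave differences of -1.95 to -1.92. The call held without either control replicate and was lost without either withdrawal replicate, as were all other calls.

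The ratio of miR-222-3p to miR-221-3p moved in opposite directions in the 2 runs. After withdrawal it was 3.51 times the control value in the SOLiD total RNA, while it was 0.843 times in the Ion Proton run, where both withdrawal libraries were below both controls. This difference between the runs was not tested. The 25 to 40 nt RNA had 1.09 times.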

How the results depend on the processing

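All 4 miRNAs had a negative log2 fold change in each of 12 alternatives for edgeR and 15 for limma, calls aside. In edgeR, TMM factors from miRNA features only gave -0.18 for miR-221-3p and -0.38 for miR-221-5p, which no longer passed. miR-222-5p passed with relative log expression factors (-0.79), library totals (-0.72), a minimum of 1 (-0.67) or 10 (-0.66), DESeq2 (-0.80) and the replicate block (-0.66). It did not pass with voom (-0.66, adjusted p = 0.0551, limma-voom) or with TMM factors from miRNA features only (-0.35). Leaving out 1 library gave 299 to 528 features called (299 and 312 without withdrawal replicates 1 and 2), and -0.62 to -0.48 for miR-221-3p, -0.82 to -0.74 for miR-222-3p, -0.90 to -0.60 for miR-221-5p and -0.95 to -0.48 for miR-222-5p.

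In limma, the replicate block called 29 features, all 29 among the 295, and 1 of them lower (181 at an unadjusted p under 0.05), with -0.76 (adjusted p = 0.0622) for miR-222-3p and -0.90 (adjusted p = 0.106) for miR-221-5p. Whether the replicate numbers pair the samples is not known. Scaling to miRNA reads gave -0.13 and -0.28 for these. miR-222-5p passed with centring on the median (-1.14) and with the 25 to 40 nt libraries added (-0.95). Leaving out 1 library gave 15 to 564 features (81, 19, 15 and 16 without Ion Proton control 1, control 2, withdrawal 1 and withdrawal 2, and 564 and 560 without the SOLiD control and withdrawal), and -1.39 to -0.55 for miR-221-3p, -0.80 to -0.73 for miR-222-3p, -0.995 to -0.75 for miR-221-5p and -0.97 to -0.70 for miR-222-5p. The settings without a SOLiD library, and all those of the interaction, were chosen after seeing the data.

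The differences of effects between the runs were 0.67 for miR-222-3p, 0.071 for miR-221-5p and 0.12 for miR-222-5p when scaled to miRNA reads, where the first passed (adjusted p = 0.0131, limma), and -0.35 for miR-222-3p and -0.94 for miR-221-5p when centred on the median, where the second passed (adjusted p = 0.0229, limma). Leaving out 1 library gave -1.95 to -1.92 for miR-221-3p.

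The SOLiD ratios per 1000000 miRNA reads were -1.49, 0.31, -0.24 and -0.15 in total RNA and 0.56, 0.68, -0.25 and -0.41 in 25 to 40 nt RNA (miR-221-3p, miR-222-3p, miR-221-5p and miR-222-5p). Centred on the median they were -2.92, -1.11, -1.64 and -1.54, and -1.29, -1.17, -2.09 and -2.21. By construction these settings only shift all ratios of a set alike. The withdrawal to control ratios turned in the SOLiD total RNA for miR-222-3p over miR-221-3p (3.51), the 5p share of miR-221 (2.38) and that of miR-222 (0.723). Leaving out 1 library gave 0.816 to 0.871, 0.830 to 0.918 and 0.919 to 1.23, the last below 1 without control replicate 1 (0.919) or withdrawal replicate 2 (0.986). The cause of these shifts was not tested. With 1 or 2 libraries per condition and run, the spread between libraries was poorly known or unknown, and counting error was widest for miR-222-5p, with 57 to 434 reads per library, among the 4 miRNAs.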
